A study of Mus musculus with 2 samples.

Results

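The intermediate filament family was followed through 10 of its genes in fibroblasts (MEFs, connective tissue cells cultured from mouse embryos) of C57BL/6J mice. The genes were Vim, Nes, Des, Krt7, Krt8, Krt18, Krt19, Lmna, Lmnb1 and Lmnb2, and they were taken by name from the noncontrol probes of both arrays, 10 of 27745 gene names in all. The RNA of LATS2-/- cells (KO) and of LATS2+/+ cells (WT), both untreated, was labelled with the red dye Cy5 or the green dye Cy3 and both were hybridised to the same Agilent whole-genome array of long oligonucleotides. On one of the 2 arrays the KO RNA carried Cy5, and on the other the dyes were exchanged. The labels name no separate animals or cultures, so the pair was taken as a technical dye swap of 1 KO and 1 WT RNA. The spread between the arrays therefore measures dye and hybridisation error, no p-value is given for any gene, and the number of arrays limits the precision.

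The genotype labels were checked on the targeted gene. Of its 4 probes, 3 had more signal in the RNA labelled KO, with mean log2 ratios of 0.56, 0.56 and 0.63, and 1 was lower at -0.35. The part of Lats2 that was deleted is not given in the sources used here, so a probe outside it checks nothing. Every direction below rests on the labels, and the samples are therefore named by their label (RNA labelled KO, RNA labelled WT). The fibroblast label was checked on 9 measured markers (among them Col1a1, Col3a1 and Thy1), and 9 of the 9 were well above background in both RNAs on both arrays.

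Intermediate filaments are ropelike polymers that give cells mechanical strength. Keratins make them in epithelia, where 1 type I keratin (Krt18 and Krt19 here) pairs with 1 type II keratin (Krt7 and Krt8 here). Vimentin, the type III protein of mesenchymal cells, makes them in fibroblasts, desmin does so in muscle, and nestin is a type IV protein of progenitor cells that assembles with vimentin. Lamins A and C (from Lmna) and the B-type lamins (from Lmnb1 and Lmnb2) form the meshwork under the inner nuclear membrane.

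Of the filament genes, the keratin genes Krt19 and Krt7 rose in the RNA labelled KO, 4.34-fold and 3.18-fold. Vim, Nes and the lamin genes Lmna, Lmnb1 and Lmnb2 gave mean ratios below 0 that did not reach 2-fold on each array. Neither RNA gave a signal well above background for Des, Krt8 or Krt18. A gene was called when both arrays gave a log2 ratio of KO over WT of 1 or more in size with the same sign, with the probe well above background by the scanner software's flag on both arrays in the RNA where it was higher. On this rule 2 of the 10 genes were called higher and 0 lower. Over all 27579 gene names with a usable probe, 1.70% were called higher and 1.50% lower. Of the 15877 gene names measured above background on both arrays for at least 1 RNA, 2.95% were called higher and 2.61% lower, and 7 of the 10 filament genes belonged to that set. The median log2 ratio of the 10 genes was -0.21, beside -0.0003 for all gene names.

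The 10 genes had 16 probes and 34 spots on each array. For 13 probes the spots were usable on both arrays, and each gene kept at least 1 of them. The spots of the other 3 (1 Vim probe and 2 Lmna probes) carried an outlier flag on at least 1 array and are given apart. Where a gene had several usable probes, the brightest stood for it. Signals are mean spot intensities in arbitrary units and are compared only between the 2 RNAs in the same dye. Nothing is inferred from the signal of one gene against another, since probes differ in how they bind.

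The upstream sequences of 3 keratin genes on mouse chromosome 15 are shown, since 1 of these genes rose and the other 2 were not well above background. RefSeq windows on build GRCm38.p6 were found for 8 of the 10 filament genes. Each run holds the 250 bases before the annotated start, 5′ to 3′ on the strand of the gene. Capitals mark the GC box, GGGCGG or CCGCCC on the other strand.
Krt7 (chr15:101412153-101412402, plus strand): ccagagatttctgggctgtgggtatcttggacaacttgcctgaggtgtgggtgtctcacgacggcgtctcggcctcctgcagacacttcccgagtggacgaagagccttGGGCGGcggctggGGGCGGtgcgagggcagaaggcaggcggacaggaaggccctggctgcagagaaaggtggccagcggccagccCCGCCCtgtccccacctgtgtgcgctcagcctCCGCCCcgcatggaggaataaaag
Krt8 (chr15:102004343-102004592, minus strand): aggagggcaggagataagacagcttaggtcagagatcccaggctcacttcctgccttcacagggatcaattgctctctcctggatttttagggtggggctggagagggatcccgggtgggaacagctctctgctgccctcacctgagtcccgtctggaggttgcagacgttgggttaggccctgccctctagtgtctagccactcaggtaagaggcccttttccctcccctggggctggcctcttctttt
Krt18 (chr15:102027966-102028215, plus strand): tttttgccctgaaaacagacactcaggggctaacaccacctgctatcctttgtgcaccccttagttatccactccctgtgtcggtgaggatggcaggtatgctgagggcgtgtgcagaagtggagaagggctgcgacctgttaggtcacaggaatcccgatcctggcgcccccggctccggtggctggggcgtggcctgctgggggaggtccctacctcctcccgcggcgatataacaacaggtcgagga
The Krt7 window held 4 GC boxes and the Krt8 and Krt18 windows held 0. GC boxes also lay upstream of Des (2), Nes (2), Lmna (1) and Lmnb2 (1), none of which was called. No window was found for Krt19. Over all 32851 RefSeq windows of this length, 32.7% held at least 1. The 3 windows were also searched on both strands for TATAAA (the TATA box), GGAATG (the motif of TEAD factors, the DNA-binding partners of the Hippo pathway coactivators that Lats kinases restrain) and TGACTCA (the motif of AP-1). None of these was present in the 3 windows, and 12.4%, 12.6% and 4.46% of all windows held them. These are matches of letters only.

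**Figure D1:**
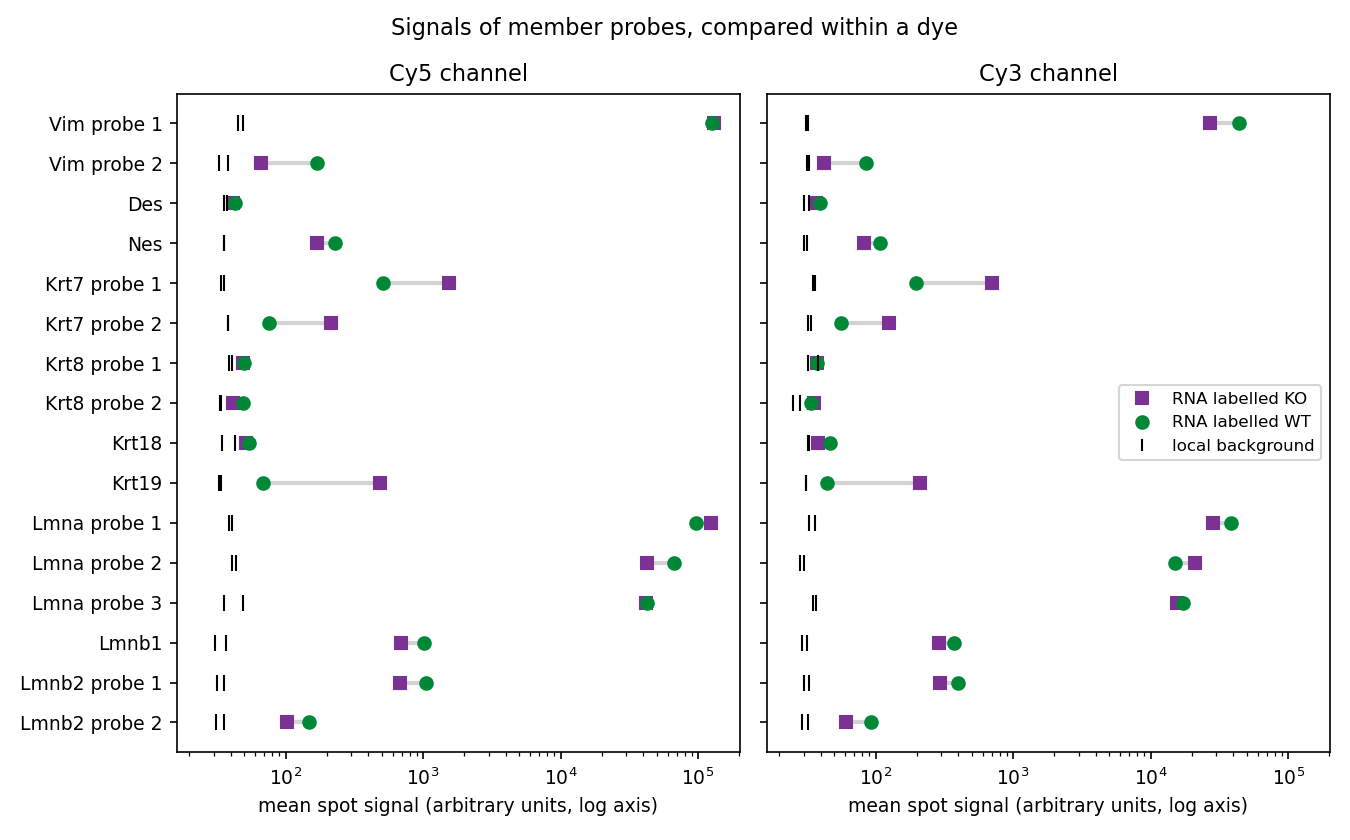
Mean spot signal (arbitrary units, log axis) of each probe of the 10 genes in the Cy5 channel (left) and the Cy3 channel (right), with the RNA labelled KO as squares, the RNA labelled WT as circles and the local background as ticks; probes of a gene are numbered by their Cy5 signal in the KO RNA. In both dyes the KO signal of Krt19 and of both Krt7 probes lies to the right of the WT signal, and Des, Krt8 and Krt18 lie near the background.

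Krt19, a type I keratin of simple epithelia, had 1 probe (chr11:99957168-99957227; all probe positions are on mouse build NCBI36, mm8, as the files give them). Its signal in Cy5 was 490 in the RNA labelled KO and 68.1 in the RNA labelled WT, and in Cy3 it was 211 and 44.5. The local background was 33 and 34 in Cy5 and 31 and 31 in Cy3, so that the WT signal stood little above it. The KO signal was the higher in both dyes, and the WT signal was still flagged well above background on both arrays. The log2 ratio was 2.09 on the array with KO in Cy5 and 2.15 on the array with KO in Cy3, with a mean of 2.12 ± 0.04 (SD between 2 arrays) or 4.34-fold. The 1000 probes nearest to it in intensity had a spread between the arrays of 0.13 on the same scale. An offset added to every signal pulls dim probes towards 0, and the scanner software's own ratio, which has none, gave a mean of 4.09 or 17.0-fold. The direction was the same in both, and the size of the Krt19 difference was not settled by these arrays.

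Krt7, a type II keratin of simple and glandular epithelia, had 2 probes. The brighter, designed on the transcript AK137217 (chr15:101255775-101255834), gave 1536 for KO and 512 for WT in Cy5, and 706 and 196 in Cy3. Its log2 ratios were 1.69 and 1.64, with a mean of 1.67 ± 0.04 (SD between 2 arrays) or 3.18-fold. The dimmer, designed on NM_033073 (chr15:101251321-101251380), gave 214 for KO and 76.2 for WT in Cy5, and 126 and 56.4 in Cy3. Its log2 ratios were 0.92 and 1.31, with a mean of 1.11 ± 0.28 or 2.17-fold, and it missed the 2-fold threshold on the array with KO in Cy5. Both probes were higher in KO on both arrays, and they differed in size. Averaged over both probes, Krt7 was at 1.39. With each array centred on its median in place of the intensity-dependent normalisation, the mean of Krt7 stayed at 1.66, but it was no longer past 2-fold on each array.

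Krt8, the type II keratin that pairs with Krt18 in simple epithelia, had 2 probes. The one that stood for it (chr15:101824817-101824876) gave 41.3 for KO and 48.7 for WT in Cy5, and 35.8 and 34.1 in Cy3. It was not well above background in either RNA, and its log2 ratios of 0.01 and 0.02 are those of signals close to background. The other (chr15:101824949-101825008) was not well above background either, with log2 ratios of 0.23 and -0.08. Krt18 (chr15:101859944-101860003) gave 51.2 for KO and 54.4 for WT in Cy5, and 38.0 and 46.3 in Cy3, with log2 ratios of -0.19 and -0.21. No fold is given for Krt8 or Krt18, and a difference in either was not detectable on these arrays.

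**Figure D2:**
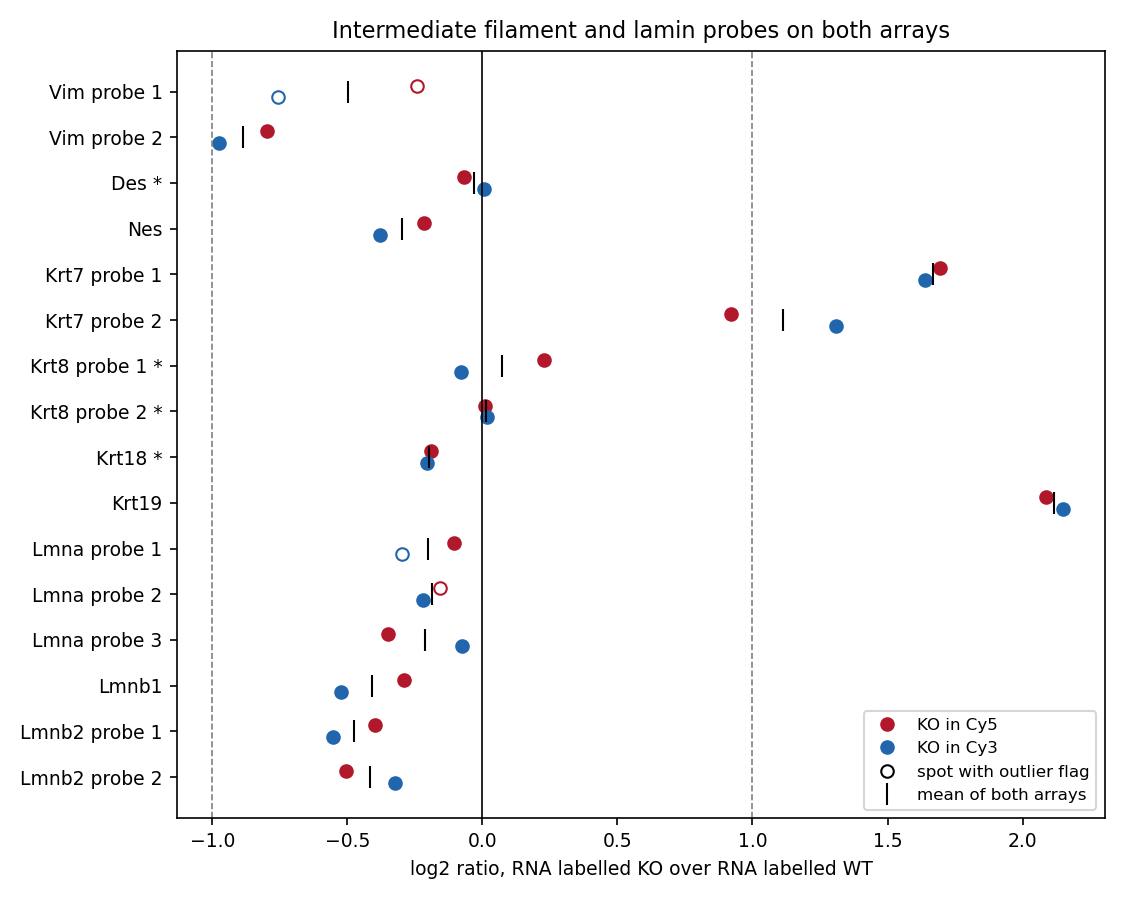
Log2 ratio of the RNA labelled KO over the RNA labelled WT (x axis) for each probe of the 10 genes (y axis, numbered as in the plot of signals), with 1 point for each array and a tick at the mean. Open points are spots with an outlier flag, asterisks mark probes not well above background in either RNA on either array, and dashed lines stand at -1 and 1. Krt19 and the brighter Krt7 probe lie beyond 1 on both arrays, and the lamin probes lie between -1 and 0.

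In addition, 38 other keratin genes were measured, and 12 of them passed the background flag on both arrays in at least 1 RNA. Of the 38, 0 were called higher and 0 lower, beside 1.70% and 1.50% of all gene names, a share that leaves a count of 0 near the background for a list of this size. The median log2 ratio was 0.01. Among the 9 keratins well above background in both RNAs, the highest ratios were those of Krt33b at 0.23, Krt17 at 0.14 and Krt1 at 0.07. The lowest were those of Krt10 at -0.14, Krt14 at -0.08 and Krt13 at -0.03. The probes of Krt33b ran from 0.0014 to 0.23, those of Krt1 from -0.06 to 0.07 and those of Krt10 from -0.14 to -0.04. Another 2 passed the background flag on both arrays only in KO, Krt80 at 0.39 and 0.46 with a mean of 0.43, and Krt23 at 0.32 and 0.18 with a mean of 0.25. Krt23 passed it on neither array in WT and was 1.19-fold higher in KO on the mean, and Krt80 passed it on 1 array in WT. By the scanner software's ratio their means were 1.49 for Krt80 and 1.89 for Krt23. Both lay on the same side of 0 as Krt7 and Krt19, and neither was called. Krt9 went the other way in detection, passing the flag on both arrays in WT and on neither in KO. Its mean was 0.02, or -0.40 by the scanner software's ratio. Krt19 lies among type I genes on chromosome 11 and Krt7 among type II genes on chromosome 15. Of the other keratins, 22 were measured on chromosome 11 and 16 on chromosome 15, of which 8 and 4 passed the background flag in at least 1 RNA.

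Keratins are also made by cell types other than fibroblasts, so marker lists were read beside Krt7 and Krt19. In bulk RNA, fewer cells of a type and less RNA per cell cannot be told apart. Of 10 epithelial markers, Cldn3 alone was well above background in both RNAs, at -0.04. Cldn7 was so in WT only, with log2 ratios of -0.28 and -0.36, or 1.25-fold higher in WT on the mean. By the scanner software's ratio the mean of Cldn7 was -2.05. Cdh1 and Epcam, the defining adhesion molecules of epithelium, passed the background flag in neither RNA. The summed level of the epithelial list, as normalised signal less the offset, was 159 to 196 in KO and 193 to 202 in WT. The part of epithelial cells in the Krt7 and Krt19 result was not tested.

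Mesothelium, the lining of body cavities, makes keratins together with mesenchymal genes. Of its 10 markers, 3 passed the background flag for at least 1 RNA, and 7 did not. The median log2 ratio of the 10 was 0.0048, while the summed level was 1457 to 1647 in KO and 352 to 381 in WT. Most of the KO sum came from Nkain4, whose signal in Cy5 was 2090 for KO and 268 for WT, and in Cy3 810 and 116. Nkain4 was called higher, with log2 ratios of 2.78 and 2.70 and a mean of 2.74 ± 0.06 (SD between 2 arrays), and both of its probes were called. Msln, which encodes mesothelin, did not pass the background flag on either array in WT. Its log2 ratios were 0.75 and 0.98, with a mean of 1.82-fold higher in KO, and the scanner software's ratio gave a mean of 4.01. Cldn15 was at -0.13. The defining markers Wt1, Upk3b and Upk1b passed the background flag in neither RNA. The part of these markers in the Krt7 and Krt19 result was not tested. Of 8 trophoblast markers, 2 were above background, with Prl3d1, a placental hormone of a family of closely related genes, called higher with log2 ratios of 1.11 and 1.08, and Ascl2 at -0.01. The Prl3d1 probe may also bind its relatives. Beside the calls in these lists, 1.70% of all gene names were called higher and 1.50% lower.

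Vim had 2 probes. The usable one, designed on the transcript AK033175 (chr2:13494992-13495051), gave 66.6 for KO and 170 for WT in Cy5, and 42.2 and 84.6 in Cy3. The WT signal was the higher in both dyes, and the KO signal was well above background on 1 of the 2 arrays. Its log2 ratios were -0.80 and -0.97, with a mean of -0.89 ± 0.12 (SD between 2 arrays) or 54.1% of WT, and it was not called. With a smaller offset of 10 the mean was -1.57, and by the scanner software's ratio -2.40, and under both it was called lower.

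The RefSeq probe of Vim (NM_011701, chr2:13500458-13500517) carried a non-uniformity flag in Cy5 on both arrays. Its signal in Cy5 was 130926 for KO and 126851 for WT, and in Cy3 it was 27051 for KO and 43805 for WT. The dyes thus gave different pictures before normalisation. With the flagged spots kept, its log2 ratios were -0.24 and -0.76, with a mean of -0.50 ± 0.36 or 70.8% of WT. Both Vim probes lay below 0 on both arrays, and the size of the difference was not settled.

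Des, the type III protein of muscle, was spotted 10 times on each array (chr1:75249977-75250202), and 10 spots were usable on the array with KO in Cy5 and 8 on the other. The averaged signal was 41.5 for KO and 42.7 for WT in Cy5, and 36.8 and 39.6 in Cy3. It was not well above background in either RNA. The spots ran from -0.28 to 0.09 on the first array and from -0.20 to 0.22 on the second, so that they fell on both sides of 0. Of 11 skeletal muscle markers, 10 were measured, 3 were well above background in both RNAs (Tnnt3 at -0.31, Mylpf at 0.06, Acta1 at 0.26) and 0 were called. Of 9 smooth muscle markers, 8 were well above background. Mylk and Cnn1, a contractile kinase and a calponin, were called lower at -2.44 and -2.11, while Acta2, the smooth muscle actin, was at 0.79 and Tagln at 0.13. Of the 3 Mylk probes, 2 were called lower, and they ran from -2.44 to 0.07. Of the 3 Acta2 probes 0 were called, and they ran from -0.64 to 0.93. The shares of all gene names called, beside these muscle lists, were 1.70% higher and 1.50% lower.

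Nes was likewise spotted 10 times (chr3:88066313-88066372). Of these, 9 spots were usable on the array with KO in Cy5 and 10 on the other. In Cy5 the KO signal ran from 154 to 181 with a median of 165, and the WT signal from 204 to 262 with a median of 230. In Cy3 the KO signal ran from 75.5 to 91.1 with a median of 83.0, and the WT signal from 95.2 to 120 with a median of 104. Within a dye, the KO and WT spots lie on different arrays and their signals were not normalised, so the separate ranges are not a comparison of replicates. The log2 ratio was below 0 in 9 of 9 spots on the first array, from -0.39 to -0.08, and in 10 of 10 on the second, from -0.47 to -0.31. The spots of 1 array share their RNA and are not replicates. The array means were -0.22 and -0.38, with an overall mean of -0.30 ± 0.11 (SD between 2 arrays) or 81.4% of WT, and Nes was not called. Among neural progenitor markers, Msi1 was well above background in both RNAs, at 0.04. Pax6 was so in KO only, with log2 ratios of 0.10 and 0.40, or 1.19-fold higher in KO on the mean. By the scanner software's ratio the mean of Pax6 was 2.57.

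A further 10 type III and type IV genes were measured, among them those of glial and neuronal filaments, and 2 were well above background in both RNAs. Synm, or synemin, a type IV protein that joins vimentin and desmin filaments, had log2 ratios of -0.77 and -0.91 with a mean of -0.84, and its other probe gave -0.32. Sync, or syncoilin, was at 0.40 and 0.54 with a mean of 0.47, and its other probe gave 0.13. Of the 10, 0 were called in either direction, beside 1.70% of all gene names called higher and 1.50% lower, and their median was -0.01.

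Lmna had 3 probes. The usable one (chr3:88570072-88570591) gave 42158 for KO and 42774 for WT in Cy5, and 15457 and 17198 in Cy3. Its log2 ratios were -0.35 and -0.08, with a mean of -0.21 ± 0.19 (SD between 2 arrays) or 86.3% of WT. The difference was close in size to the spread between the arrays. With flagged spots kept, the other 2 (chr3:88569137-88569196 and chr3:88569267-88569326) had means of -0.20 and -0.19.

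Lmnb1 (chr18:56878587-56878645) gave 692 for KO and 1010 for WT in Cy5, and 290 and 371 in Cy3. Its log2 ratios were -0.29 and -0.52, with a mean of -0.41 ± 0.16 or 75.3% of WT. The brighter Lmnb2 probe (chr10:80304501-80304560) gave 681 for KO and 1044 for WT in Cy5, and 293 and 397 in Cy3. Its log2 ratios were -0.40 and -0.55, with a mean of -0.48 ± 0.11 or 71.9% of WT. The dimmer Lmnb2 probe (chr10:80307128-80307263) gave -0.51 and -0.32, with a mean of -0.42. For both B-type lamins the WT signal was the higher in each dye, and neither gene was called. With flagged spots kept, the 6 probes of the 3 lamin genes lay below 0 on each array, with means from -0.47 to -0.19.

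The 22 lamina partners and lamin processing genes measured were all well above background in both RNAs. Of these, 0 were called higher and 0 lower, and 14 had means below 0 and 8 above 0. The median was -0.21, beside -0.0069 for all gene names well above background in both RNAs. With the probes of each gene averaged in place of the brightest, the list median was -0.10. The lowest was Tmpo, which encodes the lamina-associated polypeptide 2 proteins, with log2 ratios of -0.94 and -1.26 and a mean of -1.10. Of its 4 probes, 1 was called lower, and they ran from -1.10 to -0.23. Over all probes above background in at least 1 RNA, 2.08% were called lower and 2.48% higher. The next were Lemd3, an inner nuclear membrane protein, at -0.86 ± 0.44 and Sun2, which links the lamina to the cytoskeleton, at -0.83 ± 0.02 (SD between 2 arrays). The highest were Emd (emerin) at 0.46, Syne1 (nesprin 1) at 0.36 and Tor1aip2 at 0.27. The probes of Lemd3 ran from -0.86 to -0.11 and those of Sun2 from -0.83 to -0.69. Those of Syne1 ran from -0.06 to 0.36 and those of Tor1aip2 from -0.09 to 0.31. The list therefore held members on both sides of 0, none of them past the rule.

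Lamin B1 and several lamina genes are known to be expressed with cell proliferation, so 12 proliferation genes were read beside them. On the probe that stood for each gene, all 12 were well above background and had means below 0, with a median of -0.67. Among genes with several probes, the highest probe was at 0.05 for Tyms, -0.01 for Cdk1 and -0.10 for Top2a. It was at -0.73 for Ccnb1 and -1.46 for Mki67. Mki67, the Ki-67 marker of cycling cells, was called lower with log2 ratios of -1.78 and -1.78, and Plk1, a mitotic kinase, with -1.07 and -1.10. Beside them, 2.61% of gene names above background in at least 1 RNA were called lower. The smallest differences were those of Mcm2 at -0.01 and Tyms at -0.05. The summed level of the list was 59946 to 64590 in KO and 113097 to 114859 in WT. The part of proliferation in the lamin values was not tested.

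**Figure D3:**
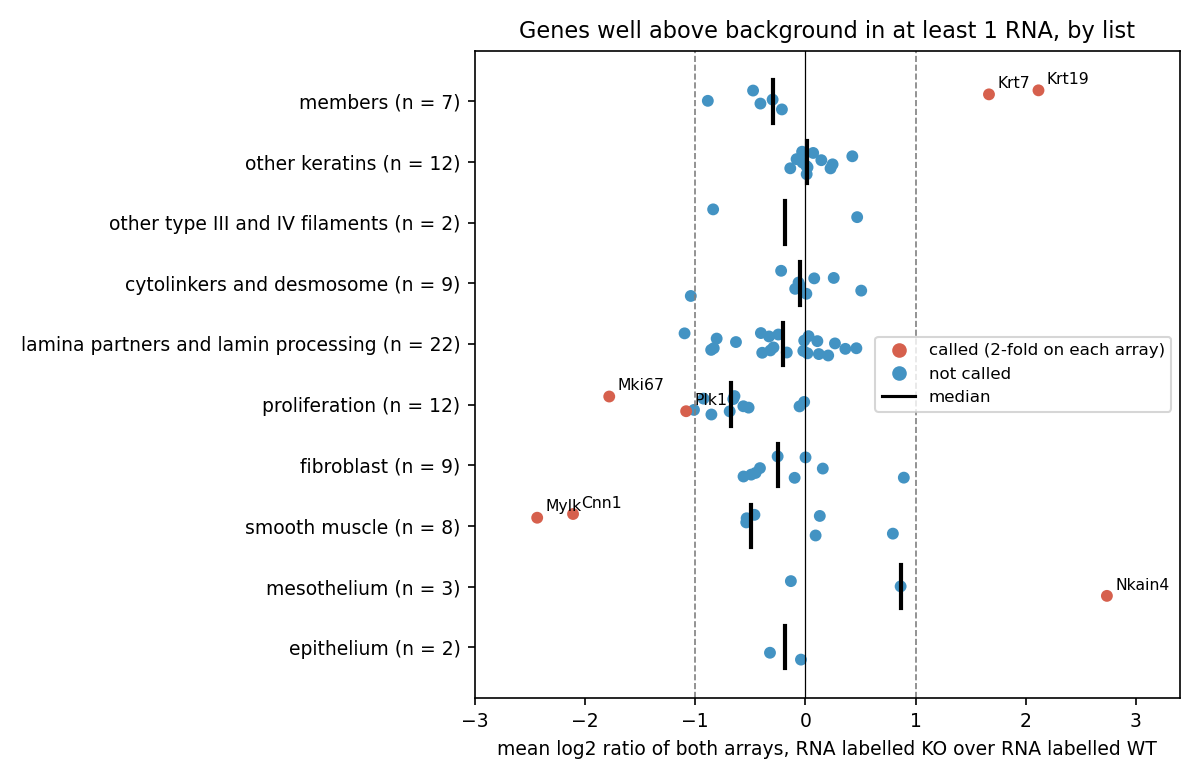
Mean log2 ratio of the RNA labelled KO over the RNA labelled WT (x axis) of the genes well above background on both arrays in at least 1 RNA, by list (y axis), with called genes in red and named, other genes in blue, a black line at the median of the points and dashed lines at -1 and 1. Among the filament genes ("members") Krt7 and Krt19 lie beyond 1 and the other keratins lie between -1 and 1.

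Proteins that tie intermediate filaments to junctions and to other filaments were read as a list of 18 cytolinker and desmosome genes. Of these, 9 passed the background flag in at least 1 RNA and 0 were called, with a median of -0.02. Dsp, or desmoplakin, which anchors keratin filaments at desmosomes, had log2 ratios of -0.95 and -1.13. Its KO signal was well above background on 1 of the 2 arrays, and its 4 probes ran from -1.04 to 0.10. By the scanner software's ratio the mean of Dsp was -2.86. Among the genes well above background in both RNAs, Pkp2 was at 0.51, Dst at 0.26 and Evpl at 0.08, and Pkp4 was at -0.22, Plec at -0.09 and Pkp1 at -0.06. The probes of Pkp4 ran from -0.22 to 0.10, those of Plec from -0.21 to 0.02 and those of Dst from 0.02 to 0.26. At 1.70% and 1.50% of all gene names called, a count of 0 is near the background for a list of this size.

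The remaining marker lists gave few calls, beside 1.70% of all gene names called higher and 1.50% lower. Counts this small in lists this short are not read as a result. The fibroblast list had a median of -0.25 with 0 of 9 measured genes called, from Col1a1 at -0.56, Col3a1 at -0.49 and Thy1 at -0.45 to Fn1 (fibronectin) at 0.89. Its summed level was 114979 to 122758 in KO and 137567 to 144382 in WT. The probes of Thy1 ran from -0.45 to 0.13, those of Col3a1 from -0.49 to -0.03 and those of Fn1 from 0.27 to 0.99. Those of Col1a1 ran from -0.56 to -0.51. Of 7 macrophage markers, Cd14 was called lower at -1.05, with Csf1r at -0.05 and Cd68 at 0.14. Of 6 Schwann cell and 7 endothelial markers, 0 were called. The part of these lists in the Vim and Nes values was not tested.

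The size of several ratios depended on the processing while the direction of Krt7, Krt19, Vim, Nes and the lamin genes did not, under every alternative that was run. Krt19 ranged from 2.09 to 4.09 and Krt7 from 1.39 to 1.88. Vim ranged from -2.40 to -0.50, Nes from -0.51 to -0.22, Lmna from -0.26 to -0.06, Lmnb1 from -0.52 to -0.29 and Lmnb2 from -0.55 to -0.40. The -0.50 of Vim and both ends of the Lmna range came from other, flagged probes that stood for the gene under those settings. With flagged spots kept, the reported Vim probe stayed at -0.89. The reported Lmna probe gave -0.35 and -0.08 on the single arrays. Des and Krt8 changed sign between settings, and neither was well above background. Over the whole array, 54.4% of the called probes were higher, and 65.5% under median centring.

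**Figure D4:**
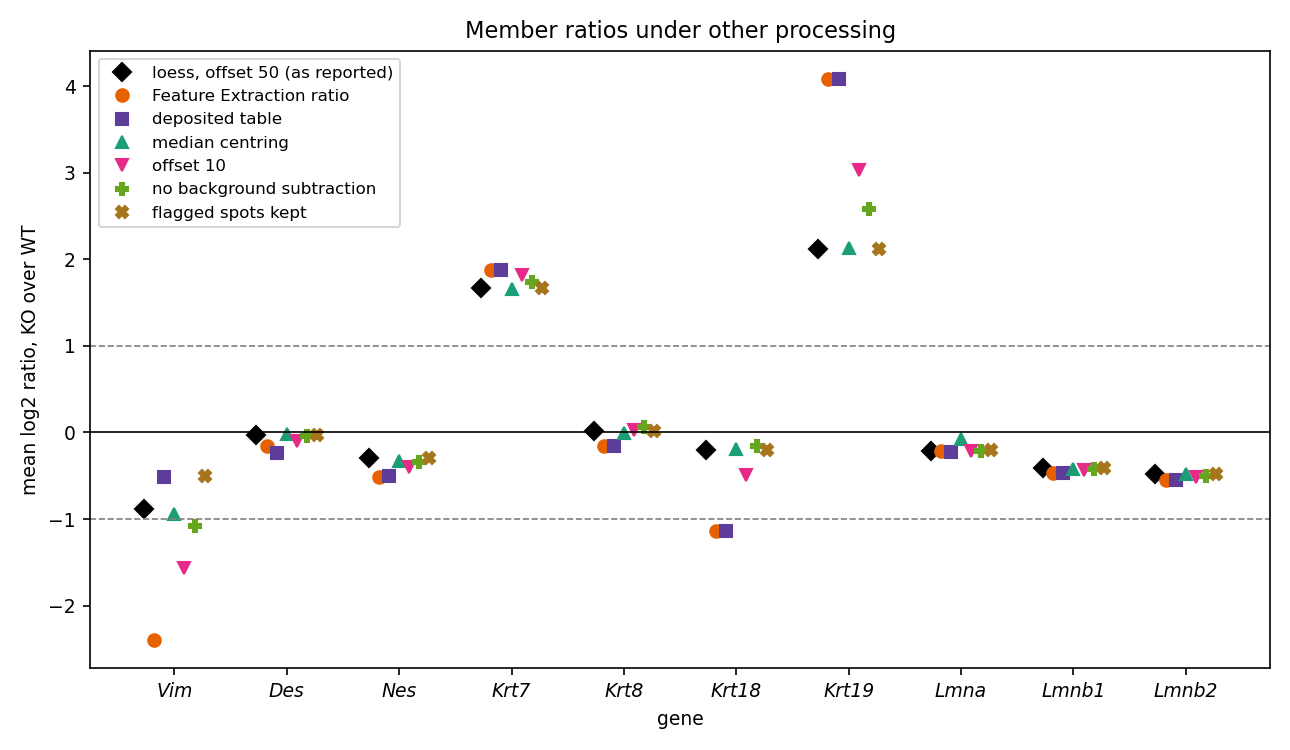
Mean log2 ratio of KO over WT (y axis) of each of the 10 genes (x axis) as reported and under 6 other ways of processing, with dashed lines at -1 and 1. Krt19 spreads from 2.12 as reported to 4.09 by the scanner software's ratio and Vim from -2.40 to -0.50, while the lamin genes stay between -1 and 0. The Vim values of the deposited table and with flagged spots kept (-0.50) are those of its flagged RefSeq probe.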

How the data were processed

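The authors deposited, for each of 2 dye-swapped arrays, the mean signal and local background intensity of every spot and the log10 ratio of Cy5 over Cy3 from Agilent Feature Extraction 10.5.1.1, and also a value table on the log2 scale, found to equal KO over WT of the processed signals on both arrays. Flags such as well above background were read from the same deposited tables as other values. Per the file headers, probe positions are on NCBI36 (mm8), and where they fall within a transcript was not analysed here.

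Intensities were background corrected in limma 3.58.1 (R 4.3.3; normexp, offset 50) and normalised by loess within each array. Control spots had weight 0 and were left out, as were spots with an outlier flag (0.899% and 0.871% of noncontrol spots). No noncontrol spot was saturated (0 on each array). Spots of a probe were averaged, the swapped array was turned, and both arrays were averaged. The median signal was 96.8 and 98.5 in Cy5 and 60.1 and 58.2 in Cy3, over backgrounds of 36 in Cy5 and 33 and 30 in Cy3. A flag on repeated spots had to be set in a share of at least 0.5. For list genes flagged above background in 1 RNA only, a bound was sought per array after Aquantile scaling. It set the brighter RNA against the lowest signal flagged above background or the dim signal itself, whichever was higher. The dim signal was the higher throughout, so the folds given are mean ratios and not bounds. The scripts were tested on simulated data. In the simulated dye swap only brighter spots were changed, so it does not cover signals close to background.

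The members, lists and alternatives were chosen with earlier results of these data known. Named genes are all 10 members and, of each list, the called genes and up to 3 at each end among genes well above background in both RNAs. Other genes named (Cdh1, Epcam, Wt1, Upk3b, Upk1b, Msln, Cldn7, Pax6, Dsp, Krt9, Krt23, Krt80, and Mcm2 and Tyms) were added as defining markers or after their values were seen. Upstream windows came from RefSeq.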

Additional observations from a re-analysis of the deposited data

How the results depend on the processing

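Vim was the 1 member called lower under the Feature Extraction ratio, an offset of 10 and a threshold of 1.4-fold, against 0 as reported. Members called higher numbered 1 (Krt19) under median centring and 0 under the methods' t-test after Benjamini-Hochberg adjustment, which gave 0 probes higher and 0 lower over the whole array. At the methods' unadjusted threshold of 0.05 with 2-fold, the same test called 524 probes higher and 443 lower and 2 members higher. With limma, 662 and 598 probes and 2 members were called. A mean of both arrays past 2-fold, without a test, gave the same counts, so limma added nothing to the fold threshold. These tests compare the RNAs hybridised, not the genotypes. As reported, 599 probes were called higher and 503 lower. The numbers were 1280 and 1220 under the Feature Extraction ratio, 1284 and 1224 in the deposited table, 321 and 169 under median centring, and 2007 and 2050 at 1.4-fold. In the deposited table flagged spots could not be left out, so the RefSeq probe stood for Vim, as it did with flagged spots kept. A probe other than the reported one stood for Lmna under both settings and on each array alone. Each array alone gave 2 members higher and 0 lower, with 670 to 715 probes higher and 584 to 666 lower. Of 96 recomputed member ratios, 75 moved by less than the larger of the gene's own SD between the arrays and the 0.13 of a single probe over the whole array, and 21 by more (18 larger in size, 3 smaller), and 0 called members changed sign. Krt18 reached -1.14 by the Feature Extraction ratio, with no RNA well above background. Beyond the changes of probe named above, the cause of these changes was not tested. No paired analysis was possible because the labels name no separate replicates and the arrays were taken as 1 dye swap. Signal over background limits Des, Krt8, Krt18, the usable Vim probe and the WT level of Krt19.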
